A study of Mus musculus with 6 samples.

Results

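Bone morphogenetic protein (BMP) ligands, their receptors and their extracellular antagonists were followed through the cells of the mouse aortic root and ascending aorta. The set held 9 of the 31055 features of the count table, taken by gene symbol: the ligands Bmp2, Bmp3, Bmp4 and Bmp6, the receptors Bmpr1a and Bmpr2, the antagonists Grem1 and Nbl1, and Id3, a target gene of the pathway. All 9 were found. Suspensions from 6 mice at 16 weeks of age, all female on a 129 background, were each made into a droplet library that counts the 3' ends of transcripts as unique molecular identifiers (UMIs). By their labels 4 mice were controls, of which 2 were Tgfbr1+/+ and 2 were Tgfbr1+/+; Wnt2CRE; EGFP-L10a, and 2 were LDS mice, Tgfbr1M318R/+, a model of Loeys-Dietz syndrome with a heterozygous missense allele of a TGF-β receptor. In the second kind of control the tracer allele is switched on by a CRE recombinase under the Wnt2 promoter, described in the methods as specific to the cardiac neural crest (CNC), so the controls do not share a single genotype. Barcodes carry a library number from 1 to 6 that is not paired with a mouse in the sources used here, so no library was given a genotype, control was not compared with LDS, and each library is given by its number.

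BMPs are secreted dimers of the TGF-β superfamily. They bind pairs of type I and type II receptors, among them the products of Bmpr1a and Bmpr2, whose kinase activity leads to phosphorylation of SMAD1, SMAD5 and SMAD9 and to transcription of the Id genes. Secreted antagonists such as Gremlin 1 (Grem1) and the DAN protein (Nbl1) bind ligands and keep them from the receptors, and in the vessel wall the pathway is best known from endothelium and from pulmonary arterial hypertension, in which BMPR2 is mutated.

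On mm10 (GENCODE M21 annotation) the ligand genes lie apart, Bmp2 at chr2:133552159-133562885 (plus strand), Bmp3 at chr5:98854415-98884396 (plus strand), Bmp4 at chr14:46383520-46390669 (minus strand) and Bmp6 at chr13:38345107-38500302 (plus strand). The receptor genes are Bmpr1a at chr14:34410734-34503341 (minus strand) and Bmpr2 at chr1:59763400-59879014 (plus strand), the antagonist genes Grem1 at chr2:113746164-113758646 (minus strand) and Nbl1 at chr4:139082284-139092993 (minus strand), and Id3 is at chr4:136143497-136145755 (plus strand). Bmp4, Bmp6 and Bmpr1a overlap genes annotated on the other strand, and Bmpr2 contains a gene on its own strand, so UMIs in those stretches depend on how the counting assigned them.

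Of 30716 barcodes, 24972 passed the filter on genes, UMIs and mitochondrial share, 1863 to 6395 in a library with 18218282 to 38105145 UMIs in all. Clustering left the 9 genes and 52 other genes of the pathway out of the variable features. It gave 10263 VSMC-like (vascular smooth muscle), 13592 fibroblast-like, 570 endothelial-like and 547 leukocyte-like cells. The classes were named by lists of 7, 8, 8 and 9 markers. All of these were highest in their own class, which the naming favoured and which is no separate check. Library 6 held only 10 endothelial-like cells. Levels are CPM, the UMIs of a gene summed over the cells of a group in a library and scaled to the total UMIs of those cells, and log2 ratios were taken within a library with a prior of 0.5 UMI. Because the assay reads 3' ends, a level was compared between groups of cells for the same gene and not between genes, and fewer expressing cells cannot be told apart from less RNA per cell in a sum. The libraries are not replicates of a condition, so no p-value was computed. A direction was called only where all 6 libraries shared it.

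Bmp4 was a transcript of fibroblast-like and endothelial-like cells. In libraries 1 to 6 it measured 85.0, 74.2, 62.5, 69.8, 75.1 and 87.0 CPM in fibroblast-like cells against 5.73, 6.99, 5.32, 12.03, 6.85 and 7.48 CPM in VSMC-like cells. The ranges lay far apart, with a median log2 ratio of 3.49 (2.53 to 3.88). Endothelial-like cells held 140.5, 61.9, 127, 84.8, 99.9 and 268 CPM, the last on 10 cells, which overlapped the fibroblast range and exceeded the fibroblast level in 5 of 6 libraries (median log2 ratio 0.57, -0.26 to 1.62). After each cell was thinned to 3000 UMIs, 17.4% of fibroblast-like cells (95% exact binomial interval 16.8 to 18.1) and 17.5% of endothelial-like cells (14.0 to 21.6) held a Bmp4 UMI. The share in VSMC-like cells, 1.95% (1.68 to 2.24), was within the interval of leukocyte-like cells, 1.56% (0.630 to 3.19), although 16 of the 21 leukocyte-like Bmp4 UMIs lay in library 4. Such intervals cover counting error only.

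Bmp6, which in other tissues is known as an endothelial ligand that regulates hepcidin, was highest in the endothelium. Its level in endothelial-like cells was 93.6, 75.1, 183, 48.4, 66.6 and 256 CPM in libraries 1 to 6. In fibroblast-like cells it was 5.85, 10.4, 5.86, 7.54, 10.2 and 5.77 CPM, so that the lowest endothelial library still lay above the highest fibroblast library, and the median log2 ratio was 3.41 (2.67 to 5.44). VSMC-like cells gave 42 UMIs in all and a median of 0.504 CPM, next to 0.557 CPM in leukocyte-like cells, and the thinned shares of cells with a UMI in these classes, 0.227% and 0.446%, did not stand apart. The share was 20.0% in endothelial-like cells (16.2 to 24.1) and 1.90% in fibroblast-like cells (1.67 to 2.16).

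Endothelial-like cells with a Bmp4 UMI held Bmp6 more often than those without in 6 of 6 libraries, in all 33 of 73 cells (45.2%) against 50 of 343 (14.6%) at equal depth. Clustered without integration, these cells fell into 446 endothelial-like and 118 lymphatic-like cells, the latter with Prox1, Lyve1, Flt4, Mmrn1 and Ccl21a as their list. Summed over libraries, Bmp4 was 118 CPM in the former (95% Poisson interval 105 to 132) and 24.6 (13.5 to 41.3) in the latter, and Bmp6 110.3 (98.1 to 124) and 17.6 (8.44 to 32.4). Bmp2 and Id3 had the same order, with 33.1 CPM (26.5 to 40.7) and 3.52 CPM (0.426 to 12.7) for Bmp2. For Id3 the values were 2073 CPM (2019 to 2129) and 610 CPM (548 to 678). Nbl1 had the opposite order, with 65.4 CPM (56.1 to 75.8) and 281 CPM (240 to 329), while Bmpr2 was 102 (90.4 to 115) and 130.2 (102 to 163). Only library 4 had over 20 lymphatic-like cells, 79 of the 118, so the lymphatic-like values describe mainly that library and have no replicate check. The endothelial-like values draw on all 6 libraries, with Bmp2 highest in libraries 3 and 5 (57.8 and 72.1 CPM). Within library 4, Bmp2 was 13.2 CPM in endothelial-like cells and 5.70 CPM in lymphatic-like cells, on 13 and 2 UMIs. In that library Bmp4 was 109 and 20.0 CPM, Bmp6 60.9 and 14.3 CPM, Id3 1722 and 616 CPM, and Nbl1 64.0 and 259 CPM.

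Bmp2, the closest relative of Bmp4, had a different distribution over the classes. It measured 28.6, 30.1, 33.3, 37.3, 49.8 and 16.6 CPM in fibroblast-like cells and 13.4, 10.99, 11.98, 15.8, 27.8 and 30.5 CPM in VSMC-like cells of libraries 1 to 6. Fibroblast-like cells were higher in libraries 1 to 5 and lower in library 6, and the ranges overlapped (median log2 ratio 1.17, -0.87 to 1.47). Endothelial-like cells ranged from 4.42 to 64.5 CPM and leukocyte-like cells from 9.71 to 76.3 CPM, so that no neighbours in the order of class medians, 31.7 in fibroblast-like, 29.3 in leukocyte-like, 14.6 in VSMC-like and 11.97 in endothelial-like cells, differed in the same direction in all 6 libraries.

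Bmp3, an atypical member that counteracts other BMPs in bone, was higher in VSMC-like cells than in each other class in every library. VSMC-like cells held 38.9, 40.7, 58.1, 68.7, 44.4 and 20.6 CPM and fibroblast-like cells 3.43, 3.26, 5.05, 6.44, 11.7 and 11.2 CPM. The groups did not overlap, with a median log2 ratio of -3.45. The difference was smaller in libraries 5 and 6 (-1.92 and -0.88) than in libraries 1 to 4 (-3.63 to -3.41). A Bmp3 UMI was found in 11.8% of thinned VSMC-like cells (11.1 to 12.4), 1.63% of fibroblast-like cells (1.41 to 1.86) and 0.223% of leukocyte-like cells (0.00565 to 1.24).

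**Figure D1:**
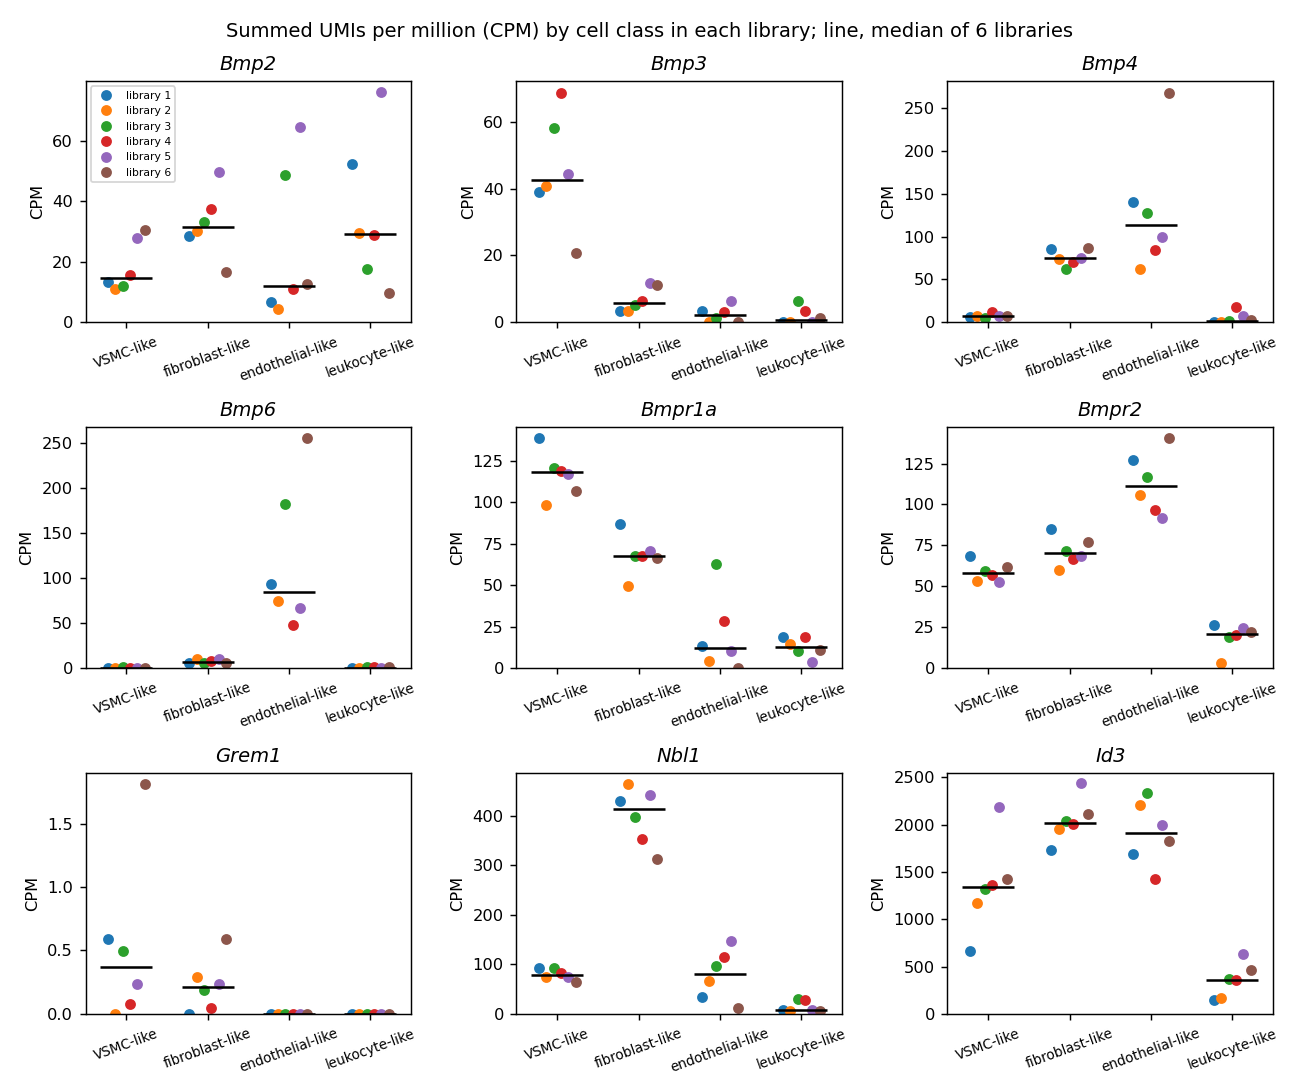
Level of each of the 9 genes in 4 cell classes. Each panel is a gene on its own linear axis from 0 in CPM, each coloured point is a library and each line the median of 6 libraries. Bmp3 and Bmpr1a were highest in VSMC-like cells, Nbl1 in fibroblast-like cells, and Bmp6 and Bmpr2 in endothelial-like cells in every library. For Bmpr2 this did not hold against fibroblast-like cells with the pathway genes among the variable features.

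The receptors had smaller ratios. Bmpr1a, a type I receptor, was 139, 98.1, 120.4, 119, 117 and 107 CPM in VSMC-like cells and 86.7, 49.6, 67.4, 67.6, 70.9 and 66.4 CPM in fibroblast-like cells. The groups did not overlap, and the ratio was nearly the same in each library, with a median log2 of -0.77 (-0.99 to -0.68). Endothelial-like cells held 13.4, 4.42, 62.5, 28.3, 10.4 and 0 CPM of Bmpr1a and were lower than VSMC-like cells in 6 of 6 libraries. Bmpr2, the type II receptor, had the reverse order: 127, 106, 117, 96.7, 91.6 and 141 CPM in endothelial-like cells, all above 59.7 to 85.2 CPM in fibroblast-like and 52.6 to 68.3 CPM in VSMC-like cells. Fibroblast-like cells exceeded VSMC-like cells in 6 of 6 libraries by a median log2 of only 0.30 (0.17 to 0.38), and those ranges overlapped. The median over all genes was itself shifted in endothelial-like cells, by 0.18 against VSMC-like and 0.17 against fibroblast-like cells, and became -0.06 and -0.08 with median-of-ratios size factors, under which the Bmpr2 medians were 0.71 and 0.39 in place of 0.94 and 0.64.

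The antagonists differed in how widely they were detected. Nbl1 was 430.2, 464, 397, 353, 441 and 313 CPM in fibroblast-like cells and 93.2, 75.0, 92.2, 83.5, 74.1 and 65.3 CPM in VSMC-like cells. The ranges were well separated and the ratios close to each other, at a median log2 of 2.23 (2.08 to 2.63). Endothelial-like cells (12.8 to 148 CPM) overlapped VSMC-like cells and were higher in 3 of 6 libraries, and 51.1% of thinned fibroblast-like cells, 20.0% of VSMC-like cells and 3.79% of leukocyte-like cells held an Nbl1 UMI. Grem1 gave only 55 UMIs in 33 of the 24972 cells. No UMI was found in 570 endothelial-like cells or 547 leukocyte-like cells, which allows a share of up to 0.526% and 0.548% of cells with a UMI, and no ratio is given for this gene.

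Id3, which encodes an inhibitor of basic helix-loop-helix factors and is a direct target of BMP SMADs, was detected in most cells of the wall. Its level was 1727, 1954, 2034, 2004, 2436 and 2111 CPM in fibroblast-like cells and 667, 1175, 1315, 1364, 2182 and 1429.6 CPM in VSMC-like cells. Fibroblast-like cells were higher in 6 of 6 libraries with a median log2 ratio of 0.60 (0.16 to 1.37), although the ranges overlapped because VSMC-like cells of library 5 were high. Endothelial-like cells, at 1429.8 to 2330.0 CPM, overlapped both, and leukocyte-like cells were lowest at 149 to 638 CPM. A list of 18 immediate early, heat shock and stress genes known to respond to tissue dissociation moved with the classes, summing to a median of 15435 CPM in VSMC-like, 23454 CPM in fibroblast-like and 27162 CPM in endothelial-like cells. Among the cells of each class and library below the median share of this list, the log2 ratio of Id3 between fibroblast-like and VSMC-like cells was 1.07.

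Between fibroblast-like and VSMC-like cells, 5 of the 9 genes were higher in all 6 libraries, namely Bmp4, Bmp6, Bmpr2, Nbl1 and Id3, and 2 were lower, namely Bmp3 and Bmpr1a. Over the 8730 genes with at least 10 CPM in either class the shares were 38.2% higher and 34.6% lower, so that the counts were near those of all genes. Of the 9 genes, 7 passed that level, all but Bmp6 and Grem1. In endothelial-like cells 3 were higher than in VSMC-like cells in all 6 libraries, Bmp4, Bmp6 and Bmpr2, against 25% of all genes, and 2 were higher than in fibroblast-like cells, Bmp6 and Bmpr2, against 22.9% of all genes. The median log2 ratios of Bmp4 and Bmp6 over VSMC-like cells were 4.21 (2.81 to 5.14) and 7.501 (6.32 to 8.56). With the pathway genes among the variable features of the clustering, the Bmp4 median was 2.45 and no longer above 0 in all 6 libraries. Under that setting Bmpr2 was no longer higher than in fibroblast-like cells in all 6 libraries. Bmp3 and Bmpr1a were lower in endothelial-like than in VSMC-like cells in all 6 libraries, against 18.8% of all genes, and Bmp3, Bmpr1a and Nbl1 were lower than in fibroblast-like cells, against 16.4%, of which Bmp3 did not reach 10 CPM in either class.

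The smooth muscle cells were then clustered at low resolution and the 2 largest subclusters compared, 7677 VSMC1-like cells and 1941 VSMC2-like cells. The name VSMC2-like was given to the one with more Enpep and Notch3 relative to Tes and Ptprz1. The order of these 4 genes is therefore the naming rule and not a result. The set of 4 genes that were higher in VSMC2-like cells in all 6 libraries was Bmp2, Bmp4, Bmp6 and Id3, against 14.8% of 8016 genes, and 0 were lower in all 6, against 20.4%. Bmp6 and Grem1 did not reach 10 CPM in either subcluster, and of the 7 genes that did, 3 were higher. Bmp2 measured 37.6, 27.3, 38.9, 37.0, 56.9 and 59.5 CPM in VSMC2-like cells and 10.5, 6.80, 5.47, 6.66, 22.3 and 21.9 CPM in VSMC1-like cells. The ranges did not overlap and the median log2 ratio was 1.91 (1.35 to 2.81). Bmp4 was 16.9, 14.5, 15.5, 26.3, 16.0 and 15.9 CPM against 4.07, 4.32, 3.01, 6.89, 4.81 and 4.61 CPM, again without overlap (median log2 1.84, 1.72 to 2.33), and its thinned share in VSMC2-like cells, 4.55% (3.65 to 5.60), was above the leukocyte-like interval. Bmp6 rested on 31 UMIs in VSMC2-like and 10 in VSMC1-like cells, and its share in VSMC2-like cells, 0.911% (0.531 to 1.45), was within the leukocyte-like interval. With cells thinned to 3000 UMIs its median log2 ratio was 2.83 and no longer above 0 in all 6 libraries.

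Id3 followed the same order within each library. It was 1194, 1858, 2805, 2332, 3365 and 2369.6 CPM in VSMC2-like cells and 569, 981, 1008, 1013, 1979 and 1086 CPM in VSMC1-like cells, with overlap only through the high VSMC1-like value of library 5 and a median log2 ratio of 1.10 (0.77 to 1.48). The other genes had medians closer to 0, with -0.23 (-0.49 to 0.32) for Bmp3 and -0.13 (-0.27 to 0.06) for Bmpr1a, lower in 5 of 6 libraries. Bmpr2 was at 0.02 (-0.27 to 0.13). The Nbl1 median of -0.12 covered libraries that disagreed, from -0.87 in library 5 to 0.56 in library 4. VSMC2-like cells also had more marked doublets (9.38% against 0.977%), a higher sum of 8 fibroblast markers (3957 against 1960 CPM) and a higher dissociation list (22221 against 13642 CPM). Without marked doublets the ratios were 1.99 for Bmp2, 1.73 for Bmp4 and 1.11 for Id3, and among cells with the lower dissociation share 1.67, 2.06 and 1.07. With classes and subclusters from log-normalized counts without integration, the Bmp4 ratio was 0.69 and no longer above 0 in all 6 libraries.

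**Figure D2:**
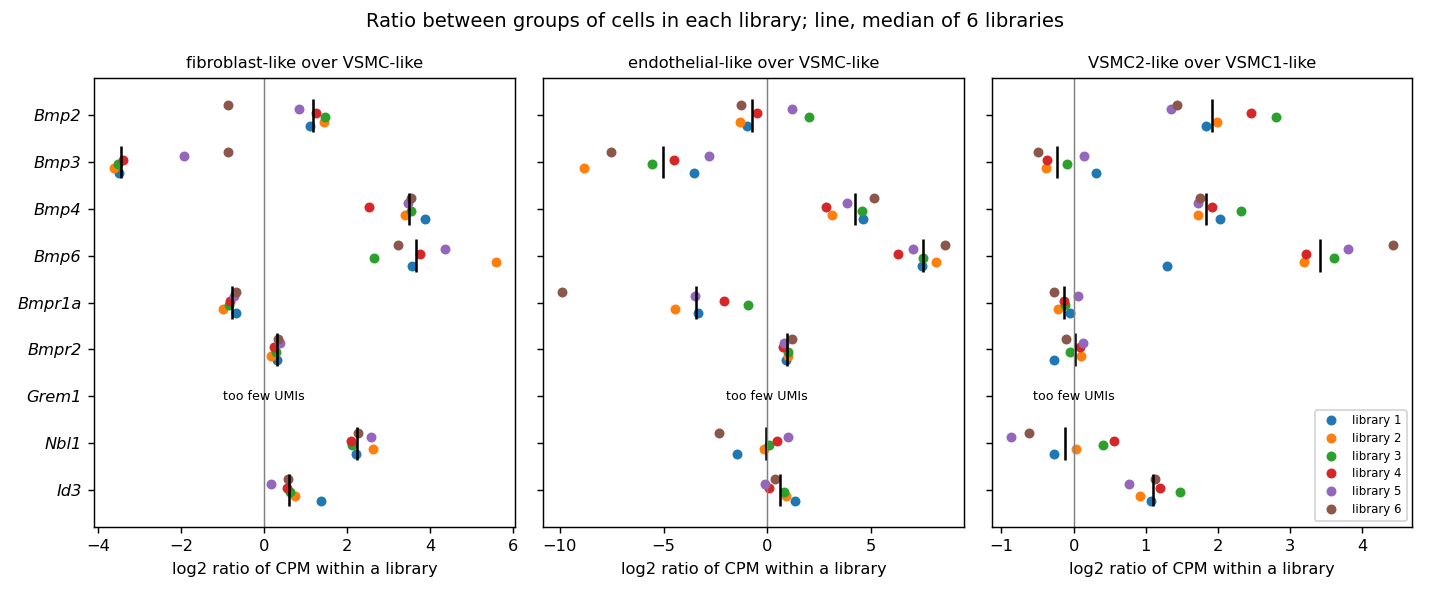
Log2 ratio of CPM between groups of cells within each library, for 3 comparisons, on linear axes that differ between panels. Coloured points are the 6 libraries, black lines their median, and Grem1 has too few UMIs for a ratio. Bmp2, Bmp4, Bmp6 and Id3 lie above 0 in all 6 libraries for VSMC2-like over VSMC1-like cells, which did not hold for Bmp6 with cells thinned to 3000 UMIs or for Bmp4 without integration.

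Subtypes at a finer resolution, called here by their leading genes, divided the VSMC2-like cells further. Of the 1941 cells, 1087 belonged to the Col8a1/Ankrd1/Hspa1b subtype, 590 to the Olfr558/Kcna5/Rasd1 subtype, 173 to the Cygb/Abca8a/Clec3b subtype, of which 77.5% were marked as doublets, and 88 to the Cd74/H2-Aa/H2-Eb1 subtype. Bmp2 was highest in the Olfr558 subtype, at 49.2, 39.9, 86.0, 55.6, 83.5 and 73.6 CPM. Each of these values lay above the whole VSMC-like class of its library, and the median log2 ratio to the other VSMC-like cells was 2.05 (1.48 to 3.54). Bmp6 was at a low level there, 3.51 CPM, on 20 UMIs against 22 in the other VSMC-like cells. It exceeded those cells in 6 of 6 libraries (median log2 3.35, 1.72 to 5.83). Bmp4 was at only 3.77 CPM there but at 11.5, 10.3, 19.5, 32.01, 18.3 and 17.7 CPM in the Col8a1 subtype, which exceeded the other VSMC-like cells in 6 of 6 libraries (median log2 1.76). Bmp2 was higher in the Col8a1 subtype than in the other VSMC-like cells as well (27.9 CPM, median log2 0.97, 6 of 6 libraries). The Bmp4 medians were 18.2 CPM in the Cd74 subtype and 18.0 CPM in the Col8a1 subtype. The Cd74 subtype exceeded the other VSMC-like cells in 5 of 5 libraries with at least 20 cells (median log2 0.73). Bmp4 was 27.8 CPM in the Cygb subtype, over the 2 libraries with enough of its cells.

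Id3 was also highest in the Olfr558 subtype, at 2478, 3510.3, 4526, 3786, 5415 and 3272 CPM. These values were above those of the Ccdc42/Tes/Htr1b subtype, 426, 899, 555, 645, 916 and 787 CPM, in each library and without overlap. Over the 9 smooth muscle subtypes found in at least 4 libraries the median ranged from 695 CPM in the Gm26699/Myo9b/Carmn subtype to 3648 CPM, while Bmpr1a ranged only from 104 to 141 CPM and Bmpr2 from 50.4 to 77.0 CPM. The dissociation list was lowest in the Ccdc42 subtype (6035 CPM) and high in the Olfr558 (32305 CPM) and Fosb/Socs3/Klf2 (38638 CPM) subtypes. The Fosb subtype had more of the list than the Olfr558 subtype but less Id3 (2197 CPM) and Bmp2 (14.1 CPM). The part of dissociation in the Id3 levels was not tested.

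Within smooth muscle, cells with a Bmp2 UMI carried more Id3. At 3000 UMIs per cell the mean was 3.82, 6.88, 7.84, 8.73, 10.0 and 8.28 Id3 UMIs in cells with Bmp2 and 2.08, 3.55, 4.16, 4.003, 6.54 and 4.28 in cells without, in libraries 1 to 6. The mean was higher in 6 of 6 libraries, by a median log2 of 0.93 (0.61 to 1.12), and by 0.55 and 0.64 within VSMC1-like and VSMC2-like cells alone. Within the 6 subtypes that allowed the split in all 6 libraries the median log2 was 0.03 to 0.62, with the mean higher in 3 to 5 of 6 libraries and in no subtype in all 6. It was 0.33 in the Olfr558 subtype (higher in 4 of 6 libraries) and -0.90 in the Cd74 subtype (higher in 1 of 4). In fibroblast-like cells the same split by Bmp2 gave a median log2 of 0.06 (-0.03 to 0.17) and the split by Bmp4 gave -0.05 (-0.21 to 0.02).

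**Figure D3:**
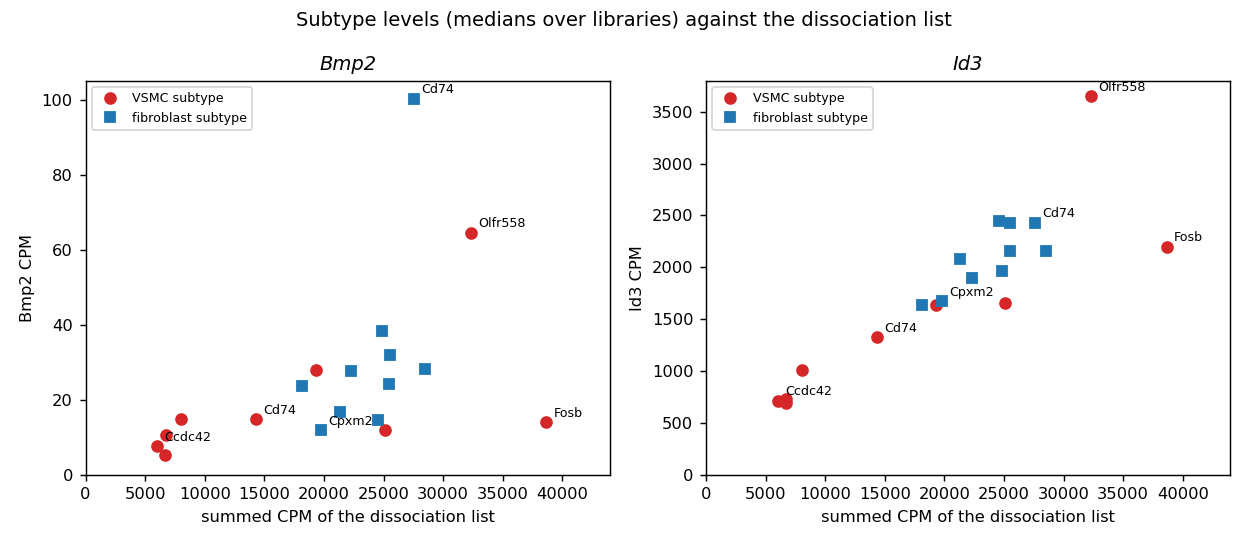
Bmp2 (left) and Id3 (right) levels of 9 smooth muscle subtypes (circles) and 10 fibroblast subtypes (squares) against the summed level of the 18 dissociation genes. All axes are linear from 0 in CPM, and each point is the median over the libraries. Id3 was 716 CPM where the list was lowest (Ccdc42 subtype), and the Olfr558 subtype had the highest Id3 at 3648 CPM.

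Bmp3 was lowest in the subtype in which Bmp2 and Id3 were highest. The Olfr558 subtype held it at 5.79, 8.55, 9.87, 14.4, 15.7 and 3.81 CPM, below the other VSMC-like cells in 6 of 6 libraries (median log2 -2.42). The Cd74/H2-Aa/H2-Eb1 subtype, led by antigen presentation genes, was highest in the 5 libraries with at least 20 cells, at 59.8, 72.2, 108, 154 and 86.2 CPM in libraries 1 to 5 (median log2 0.97). The Igfbp2/Des/Tnnt2 subtype followed with 66.7 CPM and was higher than the rest in 6 of 6 libraries (median log2 0.70).

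Among the 9 smooth muscle subtypes found in at least 4 libraries, both antagonists were highest in the Rgs5/Prrx2/Sfrp2 subtype, 630 cells led by the pericyte marker Rgs5. The 6 other pericyte markers summed to a median of 237 CPM in this subtype, within the range of 156 to 303 CPM over the other subtypes. Of the 55 Grem1 UMIs, 36 lay in 21 of these cells (3.33% of the subtype), with 9, 0, 6, 1, 4 and 16 UMIs in libraries 1 to 6, and 8 more lay in 6 cells of the Tfap2b/Dlx6/Icam2 fibroblast subtype. VSMC1-like cells held 0 Grem1 UMIs and VSMC2-like cells 1. Nbl1 measured 233, 162, 207, 219, 164 and 171 CPM in the Rgs5 subtype, above the whole class in each library, with a median log2 ratio of 1.42 (1.22 to 1.54) to the other VSMC-like cells. The Cygb subtype had a higher Nbl1 median, 222 CPM, over the 2 libraries with enough of its cells.

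In fibroblasts Bmp4 and Bmp2 peaked in different subtypes. Bmp4 was highest in the Cpxm2/Cpz/Pex5l subtype, at 113, 125, 117, 137, 136 and 131 CPM, and in the Mmp3/C2/Cpz subtype, at 101.5 to 149.5 CPM. It was low in the Emilin2/Cadm3/Adgrd1 subtype, at 35.7, 35.6, 23.1, 48.6, 36.3 and 23.9 CPM, without overlap between these groups. The median log2 ratio to the other fibroblast-like cells was 1.06 in the Cpxm2 and -1.24 in the Emilin2 subtype, each with 6 of 6 libraries on its side. Bmp2 was low in the Cpxm2 subtype, at 10.6, 16.4, 12.1, 11.7, 19.7 and 8.16 CPM (median log2 -1.62). It was highest in the Cd74/H2-Eb1/H2-Aa subtype, at 184 (on 21 cells), 78.2, 118, 83.1, 154 and 31.5 CPM, where 18.5% of thinned cells (16.4 to 20.8) held a UMI (median log2 1.89). The share in leukocyte-like cells was 4.46% (2.75 to 6.81), in which the Bmp2 level exceeded that of VSMC-like cells in 5 of 6 libraries.

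Bmp6 followed yet another order over the fibroblasts. The Emilin2 subtype held 27.8, 20.7, 13.0, 24.8, 21.5 and 11.2 CPM and the Cd74 subtype 5.78 to 25.6 CPM, against at most 0.959 CPM in any library of the Cpxm2 subtype. The Emilin2 range did not overlap that of the Cpxm2 subtype. Nbl1 was highest in the Emilin2 subtype too, at 1053, 931, 737, 884, 1007 and 765 CPM, and lowest in the Cd74 subtype, at 91.0 to 149 CPM, with median log2 ratios to the other fibroblast-like cells of 1.45 and -1.85. Id3 varied little among fibroblasts, from 1634 CPM in the Igfbp5/Pthlh/Cdh11 subtype to 2447 CPM in the Igfbp3/Ptn/Gucy1a1 subtype, and Bmpr1a from 55.5 to 94.3 CPM. The highest Bmpr1a and Bmp3 of a fibroblast subtype were those of the Myh11/Kcnmb1/Cnn1 subtype, in which smooth muscle markers summed to 20109 CPM and 35.6% of cells were marked as doublets.

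**Figure D4:**
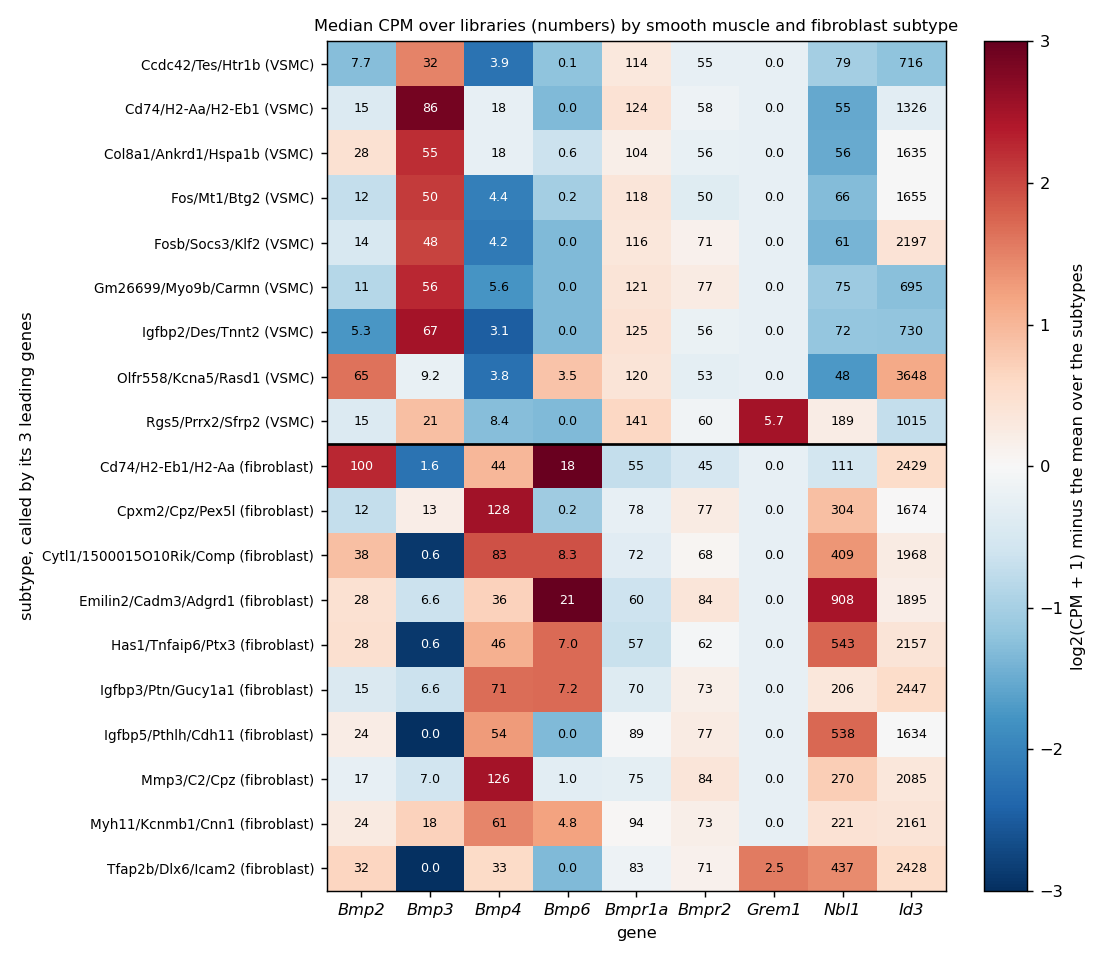
Median CPM over libraries (numbers in the cells) of the 9 genes in 9 smooth muscle and 10 fibroblast subtypes. Colour is log2(CPM + 1) minus the mean over the 19 subtypes, on a scale from -3 to 3. Bmp4 peaked at 128 CPM in the Cpxm2 fibroblasts, Nbl1 at 908 CPM in the Emilin2 fibroblasts and Id3 at 3648 CPM in the Olfr558 smooth muscle subtype.

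Over the 19 subtypes, Pearson correlations of log2(CPM + 1) are given as a description, since the subtypes share libraries and were defined on the same cells. They take 9 smooth muscle and 10 fibroblast subtypes together, so differences between the classes enter them, and no correlation was taken within a class. Between the Cpxm2 and Emilin2 fibroblast subtypes, Bmp4 and Nbl1 went opposite ways (128 and 304 CPM against 35.7 and 908 CPM). Among the 9 genes the closest pairs were Bmp2 with Id3 (0.742), Bmp4 with Nbl1 (0.726) and Bmp3 with Bmpr1a (0.724), and the most opposed were Bmp4 with Bmpr1a (-0.771), Bmp3 with Nbl1 (-0.764) and Bmp6 with Bmpr1a (-0.763). Of 10121 genes, those most like Bmp4 were Rnf144a, Slc1a3 and Lum (0.971 to 0.954). Bmp2 was closest to Ptpn1, Ddx5 and Hes1 (0.852 to 0.823), and Bmp6 to Colgalt2, Car8 and Ifi27l2a (0.961 to 0.911). Kctd10, Rassf3 and Smtn led for Bmpr1a (0.973 to 0.957), Mob1a, Adamts10 and Cflar for Bmpr2 (0.896 to 0.883), and Adgrg2, Pi16 and Nav1 for Nbl1 (0.971 to 0.949). Dlx2, Phactr1 and Tfap2b were most like Grem1 (0.932 to 0.892), on few UMIs. The Grem1 median was above 0 only in the Rgs5 (5.67 CPM) and Tfap2b (2.51 CPM) subtypes, which set these correlations, and Tfap2b is a leading gene of the latter. For Id3 they were Ppp1r15a, Junb and Ier5l (0.958 to 0.949), and Junb belongs to the dissociation list.

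Promoters of 7 of the 9 genes, 250 bases before to 50 after the start, were taken from RefSeq on GRCm38.p6, which had entries for all but Bmp2 and Bmp3. The windows of Id3, Bmp6, Bmpr2 and Bmpr1a lie wholly inside the GENCODE gene spans given above. The starts used for these genes are therefore not the outer ends of those spans. Bmp4 and Nbl1 are shown because they were both high in fibroblasts yet peaked in different subtypes, and Id3 as the target. Capitals mark GGCGCC, the GC-rich element bound by BMP SMADs, CACGTG, and GTCTG with its reverse complement, which holds the core of the SMAD box. The windows are chr14:46390620-46390919 on the minus strand (Bmp4), chr4:139092921-139093220 on the minus strand (Nbl1) and chr4:136143572-136143871 on the plus strand (Id3), each 5′ to 3′ in the direction of the gene.
Bmp4: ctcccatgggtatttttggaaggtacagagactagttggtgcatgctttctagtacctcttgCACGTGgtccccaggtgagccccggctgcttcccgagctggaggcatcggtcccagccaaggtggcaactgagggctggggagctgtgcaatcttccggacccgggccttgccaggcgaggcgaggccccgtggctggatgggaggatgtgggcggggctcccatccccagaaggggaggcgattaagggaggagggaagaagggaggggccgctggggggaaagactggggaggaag
Nbl1: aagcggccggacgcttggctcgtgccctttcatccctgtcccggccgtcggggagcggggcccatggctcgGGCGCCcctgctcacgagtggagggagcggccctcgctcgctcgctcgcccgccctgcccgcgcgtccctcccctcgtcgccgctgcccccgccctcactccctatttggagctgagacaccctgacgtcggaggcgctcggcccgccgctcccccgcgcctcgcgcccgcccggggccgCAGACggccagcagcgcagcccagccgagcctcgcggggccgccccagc
Id3: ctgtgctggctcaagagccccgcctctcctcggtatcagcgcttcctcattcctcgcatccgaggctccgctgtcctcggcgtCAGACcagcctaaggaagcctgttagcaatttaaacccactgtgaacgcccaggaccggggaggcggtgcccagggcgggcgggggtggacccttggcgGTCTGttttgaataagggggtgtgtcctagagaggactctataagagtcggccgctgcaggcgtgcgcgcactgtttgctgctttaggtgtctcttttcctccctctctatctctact

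GGCGCC was found in the promoters of Bmpr1a, Bmpr2, Grem1 and Nbl1, 4 of 7, and in 11.9% of 32851 promoters. It was not found in the windows of Bmp4, Bmp6 and Id3. These promoters are rich in G and C, with 59.3% to 79.3% against a median of 52.7% over all promoters. GTCTG was in 4 (Bmp6, Grem1, Nbl1 and Id3) and in 49.6% of all, CACGTG in 2 (Bmp4 and Bmp6) and in 7.15%, GGCGGC in 5 (all but Bmp4 and Id3) and in 23.4%, and GGGCGG in all 7 and in 35.7%. None of the 7 held TGGCGCC (4.03% of all, and containing GGCGCC), GTCTAGAC (0.213%), CAGACAG (7.73%), TGACTCA (5.20%) or TATAAA (13.6%). Each motif was searched on both strands, and a match describes the letters and not binding.

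Of the 52 other genes of the pathway, 32 had at least 10 CPM in fibroblast-like or VSMC-like cells, of which 16 were higher and 7 lower in fibroblast-like cells in all 6 libraries, beside the 38.2% and 34.6% of all genes, with a median log2 ratio of 0.32 against 0.02 over all genes. Gdf10, also called Bmp3b, was the only ligand of the list with that level and was higher in fibroblast-like cells, at 245 CPM in fibroblast-like and 16.4 CPM in VSMC-like cells (median log2 3.97, 6 of 6 libraries). Among fibroblasts its subtype median was highest in the Cpxm2 subtype (531 CPM), as for Bmp4, and lowest in the Cd74 subtype (4.38 CPM). Of 17 secreted modulators 12 passed, 6 higher and 5 lower. Of these 5, Sost, which encodes sclerostin, had the largest difference, at 1103 CPM in VSMC-like and 42.8 CPM in fibroblast-like cells (-4.76), 2239 CPM in the Rgs5 subtype and 93.1 CPM in the Olfr558 subtype. Bmper (6.14) and Fst, the activin and BMP antagonist follistatin (3.20), were higher in fibroblast-like cells, and Crim1 was lower (-2.13).

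Of 9 receptors and co-receptors, 6 passed, 4 higher and 1 lower in fibroblast-like cells in all 6 libraries. Acvrl1 (1.79) and Eng (1.71) had the largest ratios, Bmpr1b was lower (-1.96) and Rgma was at -0.06 with no common direction. Acvrl1 and Eng encode ALK1 and endoglin, receptors of endothelial BMP9 signalling, and were highest in endothelial-like cells in all 6 libraries, at medians of 124 and 495 CPM, as were Id1 (571 CPM) and Hey1 (70.7 CPM). Of 8 intracellular genes, 7 passed, 3 higher and 0 lower in fibroblast-like cells. Smad5 (0.84) and Smad7 (0.31) had the largest ratios, while Smad1 (0.01) and Smad6 (-0.49) had no common direction. Of 7 targets Msx1 (1.85) and Hey1 (1.63) were higher, Atoh8 (-1.68) was lower, and Id1 had a median log2 of -0.18 with no common direction.

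Between VSMC2-like and VSMC1-like cells 30 pathway genes had at least 10 CPM, 11 higher and 7 lower in all 6 libraries, beside 14.8% and 20.4% of all genes, with a median log2 of 0.04 against -0.04 over all genes. Of 6 targets with that level 4 were higher, Id1 (1.02), Msx1 (2.10) and Hey1 (0.97) among them, and 0 were lower. Gdf10 (2.54), Fst (2.41) and Crim1 (1.15) were higher, whereas Sost fell by 1.92 and Bmpr1b by 1.85 on the log2 scale. Id1 was highest in the Olfr558 subtype, at 465 CPM, where it exceeded the other VSMC-like cells in 6 of 6 libraries (median log2 1.64).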

How the data were processed

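The authors sorted live nucleated cells and deposited 1 matrix of UMI counts for all 6 libraries, made with Cell Ranger 6 per the labels and methods (the matrix header names 4.0.0) on mm10. The deposited counts are whole numbers, not normalized. Whether the aggregation equalized depth between libraries is not given in the sources used here.

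Cells with over 1000 and under 5000 genes, over 1500 and under 25000 UMIs and under 20% mitochondrial UMIs were kept, as in the study's methods, which state slightly fewer cells before and after filtering. Median depth was 5572 to 9838 UMIs per cell. Of the barcode sequences, 1612 occurred in more than 1 library, and 1590 kept cells carry such a sequence. Scrublet in scanpy 1.11.5 marked doublets. In libraries 2 and 5 it called under 0.5% of cells, so the 5% with the highest scores were marked instead. Marked cells stayed in the main values.

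Seurat 5.3.0 with sctransform 0.4.2 (R 4.3.3) integrated the libraries on 30 principal components and clustered them at a resolution of 0.25, and subtypes at 0.3. Classes were named from fixed marker lists. The planned division of smooth muscle asked for exactly 2 subclusters of at least 5%, which no resolution tried gave, so the 2 largest at 0.05 were used. The subcluster of 628 cells led by Rgs5 and 17 cells with cardiomyocyte transcripts were left out of that comparison. Counts were summed per group and library, and cells of at least 3000 UMIs (22935, with 2037 left out) were thinned to 3000 for shares of cells. Ranges and directions over 6 libraries stand in place of a test, and intervals cover counting error only.

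The text names the 9 genes, in each role of the pathway list the 2 largest and 2 smallest ratios of fibroblast-like over VSMC-like cells among genes with at least 10 CPM, the pathway genes highest in endothelial-like cells in every library, and the 3 genes most like each of the 9, which for Bmp3 are not reported here. The genes and lists were chosen with earlier results of these data known. The ratio calculation was tested on simulated data. Alternatives covered normalization, minimum level, resolution, doublets, mitochondrial share, dissociation share, thinning, integration and leaving out each library. A further 3 were chosen after seeing the data.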

Additional observations from a re-analysis of the deposited data

Results flagged for a closer look

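Among 26 sets of 6 library values for the 9 genes in the VSMC-like, fibroblast-like and endothelial-like classes, 2 held a library far from the others by Dixon's criterion, where chance marks about 1 in 20 sets. Bmp4 in VSMC-like cells was 12.03 CPM in library 4, against 5.32 to 7.48 CPM in the other libraries. The Cygb/Abca8a/Clec3b subtype had 92 of its 173 cells in that library and 77.5% of its cells were marked as doublets. Library 4 was also the highest for Bmp4 in VSMC1-like cells, which hold none of that subtype (6.89 against 3.01 to 4.81 CPM), and in leukocyte-like cells (17.8 against 0 to 6.93 CPM), and the part of the subtype in the VSMC-like value was not tested. Grem1 in VSMC-like cells was 1.81 CPM in library 6, on 16 UMIs, all of them in the Rgs5/Prrx2/Sfrp2 subtype.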

How the results depend on the processing

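No ratio with a common direction in all 6 libraries changed sign. Among those without one, the medians of Bmp2, Nbl1, Bmp4 and Id3 in endothelial-like cells, of Bmpr2 and Nbl1 between the smooth muscle subclusters, and of Grem1 between fibroblast-like and VSMC-like cells did so under at least 1 alternative. Of the counts that answer a comparison, 167 alternative values stayed within 1.5 times the reported count and 15 did not, and of the single ratios 807 moved by less than the spread between libraries and 30 by more. With a minimum of 50 CPM, the pathway list had 10 higher and 4 lower genes between fibroblast-like and VSMC-like cells (16 and 7 at 10 CPM), and 6 higher and 4 lower between VSMC2-like and VSMC1-like cells (11 and 7). In 1 sum over all libraries, where a direction needs no agreement between libraries, the pathway list had 12 lower in fibroblast-like cells and 15 lower in VSMC2-like cells, 6 members of the set were higher in endothelial-like than VSMC-like cells (3 per library), and 4 were lower in VSMC2-like cells (0 per library). With log-normalized counts and no integration, 1 of the 9 was lower in VSMC2-like cells (Nbl1), and 7 pathway genes were higher there. With the pathway genes among the variable features, 1 was higher in endothelial-like than fibroblast-like cells (Bmp6), Bmp4 was no longer higher than in VSMC-like cells in all 6 libraries (2.45), and 1 was lower in VSMC2-like cells (Bmpr1a), as was 1 among cells with the lower dissociation share (Bmpr1a) and 1 with subtypes led by another class left out (Nbl1, an alternative chosen after seeing the data). Leaving out each library gave 0 to 1 lower in VSMC2-like cells, the 1 being Bmpr1a without library 5. The cause was not tested. No paired analysis was possible because control and LDS mice were not compared, the barcode numbers not being paired with mice, and ratios between groups of cells were taken within each library. Grem1 rested on 55 UMIs, and Bmp6 in VSMC-like cells on 42.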
